A study of Mus musculus with 22 samples.

Results

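Collagen genes were compared in mouse embryonic fibroblasts (MEFs), which are primary cells, across 4 groups of arrays. Members were the genes whose symbol is Col, a number, a and a number, as in Col1a1, each read by the brightest, on average, of the probe sets assigned to that gene alone. They numbered 42 of the 18193 genes measured: 11 fibrillar collagens, the 6 basement membrane collagens of type IV and 25 others. Those others were 9 fibril-associated (FACIT) collagens, 5 of type VI, 4 transmembrane, 3 network-forming, 2 multiplexins, the anchoring fibril collagen Col7a1 and Col26a1. Control MEFs (n = 5) were wild type and received an adenovirus with GFP. In the oncogene group (n = 5), adenoviral Cre switched on a mutant oncogene. In the Wt1-null group (n = 5), the same virus deleted floxed Wt1, the gene of a zinc finger transcription factor. In the double group (n = 7), it did both. RNA was taken 7 days after infection in every group and hybridised to Affymetrix mouse 430 2.0 arrays. All levels below are log2 values, and all changes are differences between log2 group means, given ± the SE from limma. Calls needed a Benjamini-Hochberg adjusted p below 0.05 over all genes.

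A collagen is a trimer of chains that wind into a triple helix in the endoplasmic reticulum, where prolines and lysines are hydroxylated before secretion. Fibrillar collagens are trimmed outside the cell and assemble into crosslinked fibres, type IV collagen forms the sheet of basement membranes, and type VI forms beaded filaments around cells. Fibroblasts are the main source of type I, III, V and VI collagen in connective tissue, and embryonic fibroblast cultures also hold precursors of cartilage and bone.

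Some arrays did not sit with their group. Wt1-null array 2 was closest to double array 2 (correlation 0.998 over probe sets), Wt1-null arrays 3 and 4 were nearly alike (0.998), and double array 4 and oncogene array 4 had the lowest mean correlation with the rest, 0.932 and 0.961. Wt1 read 4.38, 4.59, 4.47 and 4.45 in control, oncogene, Wt1-null and double arrays, inside the background range of 3.65 to 5.06, taken from 3 Y-linked genes where Xist was high (9 arrays), so it gave no check of the labels. High Xist marked 5 of 7 double arrays, 2 of 5 in both the control and Wt1-null groups and 0 of 5 with the oncogene. Vim, an intermediate filament of mesenchymal cells, read 14.82 to 14.86 in the group means, and the 8 fibroblast markers averaged 11.21 to 12.94 per array. In bulk RNA, fewer cells of a type and less RNA per cell cannot be told apart. The accession numbers of the arrays fell in 3 runs. Run 1 held oncogene array 1 and Wt1-null arrays 1 and 2, run 2 held Wt1-null arrays 3, 4 and 5 and control array 1, and run 3 held the other 15 arrays. Double and Wt1-null arrays thus shared no run, and only control array 1 shared one with Wt1-null arrays. The comparison of double with Wt1-null is therefore confounded with the run, and that of Wt1-null with control nearly so. Values with the run as a block are given beside several of the single-gene differences. Control arrays received GFP and all others Cre, so each comparison with the control also compares viruses, and these comparisons share the control arrays.

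Among the fibrillar collagens, none of the chains of type I, III and V collagen passed a test in any comparison. Col1a1, the α1 chain of type I collagen, read 14.72, 14.26, 14.48, 14.39 and 14.66 in control arrays 1 to 5. In oncogene arrays 1, 3, 4, 5 and 6 it read 13.98, 13.28, 14.41, 14.74 and 14.76, and in Wt1-null arrays 1 to 5 it read 14.65, 14.03, 14.48, 14.34 and 14.97. The 7 double arrays ran from 13.23 through a median of 13.89 to 14.66. Most double arrays were therefore low, but their highest reached the upper control arrays. The double mean differed from the control by -0.60 ± 0.24 and from Wt1-null by -0.59 ± 0.24, neither of which passed (adjusted p = 0.16 and 0.27, limma); the second was -0.58 with the run as a block. Col1a2, the α2 chain of the same trimer, stayed between 14.33 and 15.09 in all 22 arrays, near the top of the scale at 15.14, where a large change could not be read. Its group means spanned 0.18, from 14.64 ± 0.23 (SD, n = 7) in double to 14.82 ± 0.17 (SD, n = 5) in Wt1-null arrays. These values rest on the brightest of its 3 probe sets. Over the alternative fits, among them the mean of all probe sets, the double group differed by -0.58 to -0.12 from Wt1-null. From control it differed by -0.49 to -0.05, with 0 of these fits called. Col3a1, the chain of type III collagen, spanned 0.23 between group means, from 14.28 ± 0.33 (SD, n = 7) in double to 14.50 ± 0.41 (SD, n = 5) in oncogene arrays. Neither gene passed in any comparison.

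Type V collagen sits inside type I fibrils and limits their diameter. Col5a1 averaged 12.43, 12.57, 13.01 and 12.39 in control, oncogene, Wt1-null and double arrays, and Col5a2 averaged 13.94, 13.67, 14.23 and 13.53. Both were highest in Wt1-null array 5, at 13.75 and 14.72, and lowest in double array 1, at 11.39 and 12.50. Against Wt1-null, the double group differed by -0.62 ± 0.29 for Col5a1 and by -0.71 ± 0.24 for Col5a2 (adjusted p = 0.32 and 0.18, limma), and with the run as a block both were -0.49. Col5a3, the third chain of the type, averaged 9.43, 8.75, 8.66 and 8.51 in the same order of groups. Its differences from control were -0.68 ± 0.42, -0.77 ± 0.42 and -0.93 ± 0.39 (adjusted p = 0.48, 0.45 and 0.18, limma). Control array 1 was its highest array, at 10.41, against 8.85 to 9.71 in the other controls.

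The widest spans of group means among the fibrillar genes were those of Col11a1 (1.17), Col2a1 (1.04) and Col5a3 (0.93). Col11a1, a chain of the thin cartilage fibril that fibroblasts also make, read 11.27, 10.44, 10.59, 10.29 and 10.74 in the control arrays and 9.34, 9.47, 10.22, 10.26 and 10.33 in the oncogene arrays. Wt1-null arrays read 11.14, 10.37, 10.75, 10.55 and 11.86, and double arrays ran from 8.25 through 10.23 to 10.50. Double arrays 1 and 5, at 8.25 and 8.42, lay below all other arrays, while the other double arrays were at 10.08 or above. Of these, arrays 4 and 6, at 10.23 and 10.08, also lay below every control array, and arrays 2, 3 and 7 fell within the control range. The difference between double and Wt1-null was -1.17 ± 0.39 (adjusted p = 0.17, limma), and -1.09 with the run as a block. Col2a1, the main collagen of cartilage, ran from 6.65 to 10.06, and its highest array was double array 4. The 7 chondrocyte markers averaged 6.00 to 7.63 per array over all groups, with Matn1 inside the background range in every array. Some varied more, as Comp ran from 7.81 to 11.76 in control and from 6.45 to 11.08 in oncogene arrays. Hapln1 ran from 6.16 to 9.73 in control and from 5.16 to 8.51 in oncogene arrays. The part of these markers in the Col11a1 and Col2a1 levels was not tested.

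Across the 11 fibrillar genes the double group was lower than the control for 10, lower than the oncogene group for 9 and lower than Wt1-null for 9, where 45.4%, 53.2% and 58.0% of all genes were higher. These counts stayed the same when each array was centred on its median. Median differences were -0.18, -0.14 and -0.18, beside medians over all genes of -0.02, 0.01 and 0.04. When all probe sets of each gene were averaged they were -0.42, -0.18 and -0.58, and leaving out 1 array moved them between -0.28 and -0.11, -0.24 and -0.01, and -0.41 and -0.12. These counts and medians are given without the run as a block. With that block Col3a1 took the other sign against Wt1-null (0.05), while Col1a1, Col1a2, Col5a1, Col5a2 and Col11a1 stayed lower. Against control Col5a1 took the other sign with the block (0.06), while Col1a1, Col1a2, Col3a1 and Col5a2 stayed lower. With the Xist level as a covariate Col5a1 was higher than control (0.12). With that covariate Col5a1 (0.14) and Col5a2 (0.02) were also higher than in the oncogene group. The 6 mitosis genes read as a list were also lower in double arrays, with medians of -0.78, -0.96 and -0.83 in these comparisons. Of them 0 were called by limma, and 1, 6 and 3 had an unadjusted p under 0.05, against 20.1%, 3.09% and 14.8% of all genes. Their part in the result was not tested. Col24a1, a fibrillar collagen of developing bone and cornea, was the only fibrillar gene called in any of these comparisons, at 0.65 ± 0.19 in double against control (adjusted p = 0.048, limma). It read 3.61 to 3.93 in the control and 3.86 to 4.94 in the double arrays. All of its values lay at or below the highest background reading of 5.06, so the size of this rise cannot be read, and the call held in 8 of the 22 fits that each left out 1 array. The remaining members Col11a2 and Col27a1 had group means that spanned 0.12 and 0.10.

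**Figure D1:**
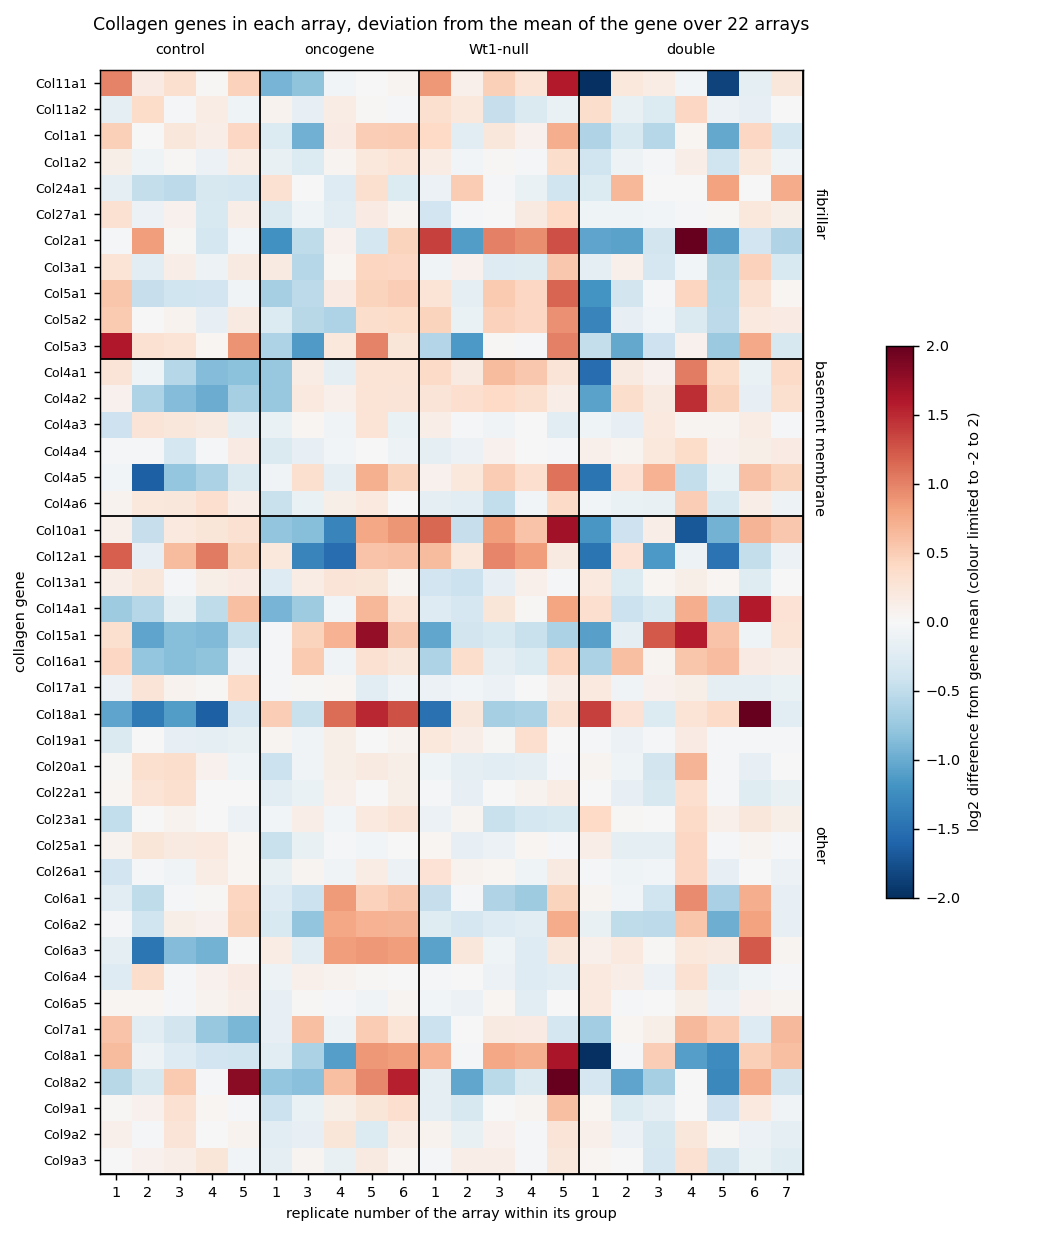
Each row is a collagen gene, grouped as fibrillar, basement membrane and other, and each column is an array, grouped by condition with its replicate number. Colour gives the log2 difference from the gene's mean over all 22 arrays, limited to 2 either way; Col18a1 is blue in the control and red in 4 of the 5 oncogene arrays, and double arrays 1 and 5 are blue for Col11a1 while Wt1-null array 5 is red across most fibrillar rows.

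In some arrays the fibrillar genes deviated together from their group. Of the 9 fibrillar genes whose mean lay above the median of all genes, all 9 were below their group mean in control array 4, oncogene array 3 and double array 1. In Wt1-null array 5 and oncogene array 6 none of the 9 was below its group mean. Their mean deviation from the group mean ran from -0.57 in Wt1-null array 2 and double array 1 to 0.62 in Wt1-null array 5. Other arrays were mixed: in 8 of the 22, between 3 and 6 of the 9 genes were below the group mean.

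Among the basement membrane collagens, Col4a1 and Col4a2, which form the common type IV trimer, and Col4a5, a chain of the kidney and lung network, were higher in Wt1-null than in control arrays, without passing the test. Col4a2 read 11.85, 11.16, 10.90, 10.78 and 11.10 in the control arrays and 12.03, 12.09, 12.17, 12.09 and 11.90 in the Wt1-null arrays. All Wt1-null arrays thus lay above all control arrays. The difference was 0.90 ± 0.32 (adjusted p = 0.27, limma). Col4a1 read 12.99, 12.65, 12.16, 11.87 and 11.91 in control and 13.12, 12.90, 13.37, 13.27 and 12.99 in Wt1-null arrays, where only control array 1 reached the Wt1-null range. It differed by 0.81 ± 0.33 (adjusted p = 0.33, limma). Col4a5 read 10.50, 8.92, 9.78, 9.92 and 10.27 in control and 10.63, 10.76, 11.06, 10.89 and 11.65 in Wt1-null arrays, again without overlap, with a difference of 1.12 ± 0.35 (adjusted p = 0.23, limma). Second probe sets gave 0.96 for Col4a1 and 0.84 for Col4a5. Control array 1, the only control in a run with Wt1-null arrays, was the highest control for all 3 genes. Against it alone, the 3 Wt1-null arrays of that run differed by 0.20 for Col4a2, 0.22 for Col4a1 and 0.69 for Col4a5 (adjusted p = 0.999 for each, limma with the spread pooled over all arrays, so that 1 control is assumed to vary like the rest). With the run as a block over all arrays the differences were 0.94, 0.83 and 0.97 (adjusted p = 0.58, 0.64 and 0.59, limma).

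In this comparison 2 of 42 collagens, Col4a2 and Col4a5, had arrays that did not overlap, against 5.68% of all genes (1.49% higher). None of the 42 was called by limma, against 0.104% of all genes, while 4 were higher and 1 lower at an unadjusted p under 0.05, against 12.7% of all genes (4.20% higher, 8.50% lower). The near-identical Wt1-null arrays 3 and 4 are counted here as 2 arrays. Wt1-null array 2 read 12.09 for Col4a2 and double array 2, which it resembled most, 12.11.

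Col4a2 in oncogene arrays was 11.01, 11.96, 11.87, 12.04 and 12.03, so that array 1 alone fell into the control range, and the difference from control was 0.63 ± 0.32 (adjusted p = 0.36, limma). Double arrays ran from 10.69 through 12.08 to 13.24, the lowest being array 1 and the highest array 4. Their difference from control was 0.83 ± 0.29 (adjusted p = 0.10, limma). Without double array 1 it was 1.04 and passed (adjusted p = 0.0100, limma), as did Col4a1 at 0.73 (adjusted p = 0.050, limma). Col4a5 gave the largest interaction among the collagens, -1.37 ± 0.48, meaning that the oncogene and control groups differed by 0.92 but the double and Wt1-null groups by -0.45. That interaction did not pass (adjusted p = 0.58, limma) and was -1.24 with the run as a block. Since only the control group received GFP, every interaction here also contains the difference between viruses. Of the 42 collagens 0 were called for the interaction by limma, against 0.0110% of all genes, and 4 had an unadjusted p under 0.05, against 8.55%. The remaining type IV genes were dim or flat: Col4a3 averaged 4.87 to 4.93, Col4a4 4.98 to 5.25 and Col4a6 6.47 to 6.78 in the 4 groups. Every oncogene array of Col4a4 lay below every double array, with a difference of 0.27 ± 0.08 (adjusted p = 0.9997, limma). The median of the 6 type IV differences from control was 0.17 in oncogene, 0.41 in Wt1-null and 0.34 in double arrays, beside medians over all genes of -0.03, -0.05 and -0.02. Leaving out 1 array moved the oncogene median of the 6 type IV genes between 0.097 and 0.28. With the basement membrane multiplexins Col15a1 and Col18a1 added, the medians were 0.49, 0.34 and 0.57.

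The largest change among the collagens was in Col18a1, a collagen of basement membranes that carries glycosaminoglycan chains and whose end fragment is endostatin. It read 9.40, 9.05, 9.34, 8.83 and 10.13 in control arrays 1 to 5 and 10.95, 10.01, 11.57, 11.96 and 11.73 in oncogene arrays 1, 3, 4, 5 and 6. Control array 5 and oncogene array 3 were the pair that overlapped. Wt1-null arrays read 8.97, 10.69, 9.80, 9.82 and 10.77, on both sides of the highest control array. Double arrays ran from 10.18 through 10.75 to 12.51, all above every control array.

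Col18a1 rose by 1.90 ± 0.45 in oncogene against control (adjusted p = 0.028, limma) and by 1.66 ± 0.41 in double against control (adjusted p = 0.019, limma). Its second probe set gave 1.95 and 1.87. It was also the only collagen called over the 4 groups by the F test of limma (adjusted p = 0.036), which called 3.02% of all genes. The Wt1-null group differed from control by 0.66 ± 0.44 (adjusted p = 0.55, limma), the double from the oncogene group by -0.23 ± 0.41 with a 95% interval of -1.09 to 0.63, and the interaction was -0.89 ± 0.61 (adjusted p = 0.64, limma). With the run as a block the interaction was -1.08. Over the 22 fits that each left out 1 array the oncogene difference ran from 1.72 to 2.21, and it lost its call without control array 2, 3 or 4 or oncogene array 4, 5 or 6 (adjusted p up to 0.091). The double difference ran from 1.41 to 1.86 and lost its call without control array 2, 3 or 4, and with the Xist level as a covariate (1.53, adjusted p = 0.057). Endothelial cells also make type XVIII collagen. Among 6 endothelial markers, Tek rose by 1.29 in double against control (adjusted p = 0.045, limma) and differed by 1.29 in oncogene against control (adjusted p = 0.11, limma), with no overlap of arrays in either, while Pecam1 and Emcn stayed within the background range in every array. Of the 6 markers, 4 were higher and 2 lower in oncogene against control, and 3 were higher and 3 lower in double against control. The median difference of the list was 0.03 in both. The mean over the endothelial markers, which includes Tek, ran from 5.14 to 5.44 per array in control, from 5.37 to 5.75 in oncogene and from 5.31 to 5.71 in double arrays. Their part in the Col18a1 values was not tested.

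Col15a1, the other multiplexin, a collagen of the zone just beneath basement membranes, had a similar order of groups. The control arrays read 7.77, 6.38, 6.59, 6.56 and 6.99 and the oncogene arrays 7.41, 7.90, 8.14, 9.20 and 7.98. Control array 1 was alone within the oncogene range. The difference of 1.27 ± 0.40 did not pass (adjusted p = 0.11, limma), nor did that of the double group, 0.91 ± 0.37 (adjusted p = 0.16, limma). Wt1-null arrays, at 6.40 to 7.15, stayed near the control, with a difference of 0.03 ± 0.40.

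Col6a3, the large α3 chain of type VI collagen, was the other collagen called with the oncogene. It read 12.48, 11.21, 11.79, 11.71 and 12.65 in control and 12.81, 12.43, 13.50, 13.53 and 13.49 in oncogene arrays. Only oncogene array 3 fell among the control values. Wt1-null arrays read 11.59, 12.89, 12.57, 12.41 and 12.88, and double arrays ran from 12.69 through 12.84 to 13.90, all above the controls. The rise was 1.18 ± 0.30 in oncogene against control (adjusted p = 0.047, limma) and 0.98 ± 0.28 in double against control (adjusted p = 0.044, limma). Both calls lie close to the threshold: over the 22 fits that each left out 1 array, the first held in 9 and the second in 12, with differences of 0.99 to 1.36 and 0.79 to 1.15 and adjusted p up to 0.15 and 0.14. With the Xist level as a covariate the differences were 1.25 and 0.91 (adjusted p = 0.051 and 0.10, limma).

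Col6a1 and Col6a2, whose chains join Col6a3 in the type VI trimer, were not called in any comparison. Group means ± SD of Col6a1 were 12.64 ± 0.34, 12.93 ± 0.55, 12.42 ± 0.48 and 12.76 ± 0.58 in the order control, oncogene, Wt1-null (n = 5 each) and double (n = 7). Those of Col6a2 were 12.65 ± 0.30, 12.82 ± 0.72, 12.54 ± 0.45 and 12.47 ± 0.62 in the same order. Within each array, the level of Col6a3 minus the mean of the 2 other chains was then computed, a measure chosen after the values were seen, so that it is a description with no test. Its zero has no meaning, since probe sets differ in brightness. The measure was -0.06, -0.99, -0.91, -0.99 and -0.44 in control and 0.44, 0.39, 0.03, 0.30 and 0.23 in oncogene arrays, without overlap and with means 0.96 apart. Wt1-null arrays read -0.70, 0.41, 0.35, 0.23 and -0.36, with arrays 1 and 5 among the controls. Double arrays averaged 0.33 and differed from control by 1.01, although array 4, at -0.53, lay among the controls. The double and oncogene means were 0.05 apart. Within run 3 the differences from control were 1.07 for oncogene and 1.17 for double arrays.

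**Figure D2:**
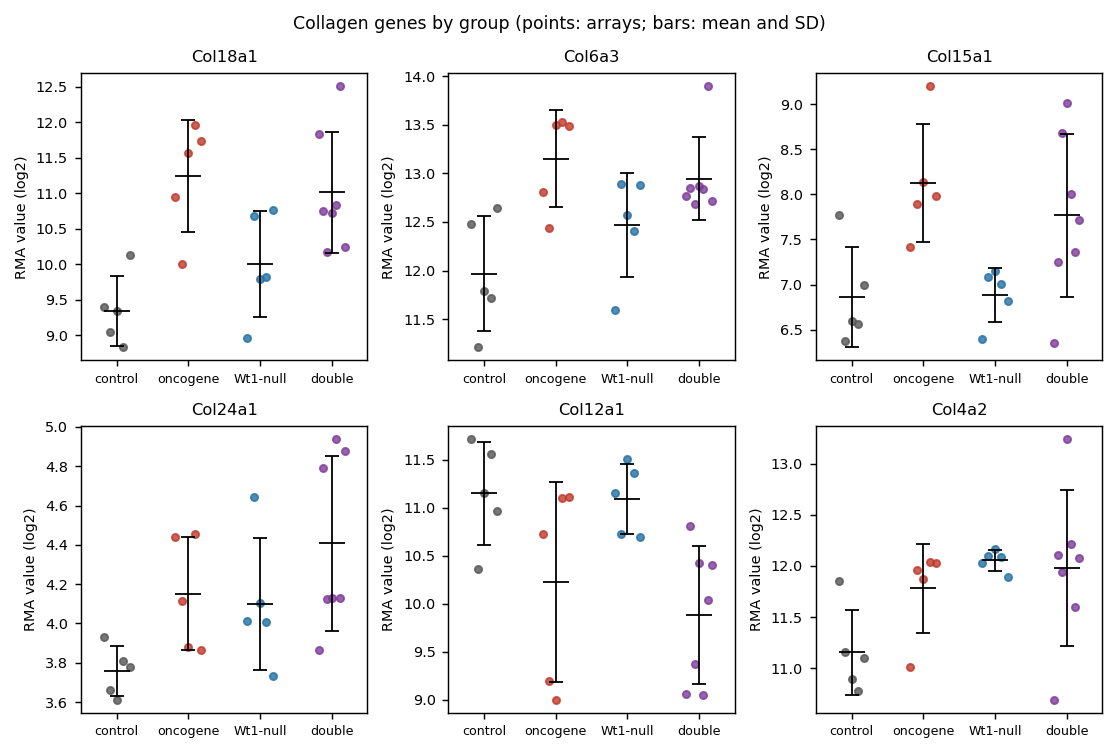
Points are the log2 RMA levels of 6 collagens in each array of the 4 groups, with the group mean and SD as bars. For Col18a1 and Col6a3 all double arrays lie above all control arrays, Col24a1 stays below 5.06 throughout, and Col4a2 in double arrays spreads from 10.69 to 13.24.

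The promoters of these type VI and Col18a1 genes are shown because Col6a3 and Col18a1 were called and the other type VI chains were not. Sequences are from RefSeq on mouse assembly GRCm38.p6, 5′ to 3′ on the gene's strand, and end at the base before the annotated start. Capitals mark a GC box (GGGCGG) or an AP-1 site (TGANTCA), searched on both strands together with the CCAAT box (CCAAT), the TATA box (TATAAA) and a core shared by WT1 and EGR factors (GCGTGGG), with overlaps allowed. All of these windows lie on the minus strand: Col6a1 at chr10:76726045-76726294, Col6a2 at chr10:76623631-76623880, Col6a3 at chr1:90844002-90844221 and the outer of 2 Col18a1 starts at chr10:77166531-77166780. The Col6a3 window holds 220 bases, since 30 bases of the gene itself were trimmed.
Col6a1: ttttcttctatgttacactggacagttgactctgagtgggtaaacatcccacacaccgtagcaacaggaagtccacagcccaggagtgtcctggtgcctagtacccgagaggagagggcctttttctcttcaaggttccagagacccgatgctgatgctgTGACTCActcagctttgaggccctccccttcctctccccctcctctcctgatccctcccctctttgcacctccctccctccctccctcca
Col6a2: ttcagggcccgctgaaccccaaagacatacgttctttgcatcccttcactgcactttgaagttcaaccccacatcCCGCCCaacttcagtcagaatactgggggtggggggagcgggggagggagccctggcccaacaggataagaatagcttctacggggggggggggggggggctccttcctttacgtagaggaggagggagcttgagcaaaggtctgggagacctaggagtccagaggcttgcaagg
Col6a3: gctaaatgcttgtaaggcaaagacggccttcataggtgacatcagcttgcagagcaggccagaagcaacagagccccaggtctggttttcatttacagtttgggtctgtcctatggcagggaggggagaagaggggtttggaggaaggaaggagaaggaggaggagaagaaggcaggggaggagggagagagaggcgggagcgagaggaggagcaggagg
Col18a1: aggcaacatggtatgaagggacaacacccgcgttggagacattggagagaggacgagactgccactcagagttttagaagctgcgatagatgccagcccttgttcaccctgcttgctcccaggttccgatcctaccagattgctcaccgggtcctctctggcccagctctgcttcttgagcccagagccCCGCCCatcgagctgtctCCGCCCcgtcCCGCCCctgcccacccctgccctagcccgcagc

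The Col6a1 window held an AP-1 match, the only one among 36 windows of 33 collagen genes, while 6.75% of all 32851 windows held one. Col6a2 held 1 GC box and the outer Col18a1 window 3 and a CCAAT box. The inner Col18a1 window, at chr10:77113706-77113955, and the shorter Col6a3 window held no match to the searched motifs. Over the collagens, 21 of 36 windows held a GC box, against 32.7% of all windows, 13 a CCAAT box, against 33.9%, and 5 a TATA box, against 12.4%. No collagen window held GCGTGGG, which 4.30% of all windows did. Such matches describe letters within these windows and not bound sites. Col4a1 and Col4a2 start head to head on opposite strands, and transcripts from 1 annotated start of each, chr8:11312826 and chr8:11312805, share 22 bases. The outermost annotated end of Col4a1, chr8:11312889, gives a longer overlap.

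FACIT collagens decorate fibre surfaces, and Col12a1 had the widest span of group means among them. It read 11.72, 10.36, 11.15, 11.56 and 10.96 in control and 10.73, 9.198, 8.999, 11.10 and 11.11 in oncogene arrays. Wt1-null arrays read 11.15, 10.73, 11.51, 11.36 and 10.69, and double arrays ran from 9.05 through 10.04 to 10.81. Values between 8.999 and 9.37 were found in oncogene arrays 3 and 4 and in double arrays 1, 3 and 5, whereas no control or Wt1-null array was below 10.36. The difference was -1.27 ± 0.39 in double against control (adjusted p = 0.060, limma), -1.21 ± 0.39 in double against Wt1-null (adjusted p = 0.16, and -0.52 with the run as a block) and -0.92 ± 0.43 in oncogene against control (adjusted p = 0.31). Col16a1, another FACIT collagen, differed by 0.62 and 0.64 in oncogene and double against control (adjusted p = 0.27 and 0.13, limma). Col14a1, which binds fibrils through decorin, averaged 5.86 in control and 6.36 in double arrays. The remaining members Col9a1, Col9a2, Col9a3, Col19a1, Col20a1 and Col22a1 had group means that spanned at most 0.30 (Col19a1).

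Among the network collagens, Col8a1, a short-chain collagen of vessel walls and Descemet's membrane, read 12.78, 12.06, 11.90, 11.78 and 11.75 in control and 12.85, 12.12, 12.93, 12.87 and 13.78 in Wt1-null arrays. Oncogene arrays read 11.94, 11.52, 11.05, 13.02 and 12.99, and double arrays ran from 9.98 through 12.13 to 12.75. Double array 1 was the lowest of all 22 and Wt1-null array 5 the highest. The difference of double from Wt1-null, -1.19 ± 0.46, did not pass (adjusted p = 0.23, limma) and was -0.75 with the run as a block. Its partner Col8a2 ran from 4.32 to 7.71, and Col10a1, the collagen of hypertrophic cartilage, from 7.34 to 10.72. The anchoring fibril collagen Col7a1 averaged 7.69 in control and 8.25 in oncogene arrays. The transmembrane collagens Col13a1, Col17a1, Col23a1 and Col25a1, together with Col6a4, Col6a5 and Col26a1, had group means that spanned at most 0.41 (Col23a1). Of the 42 collagens, 7 had a mean within the background range, namely 1 fibrillar, 1 type IV and 5 others.

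**Figure D3:**
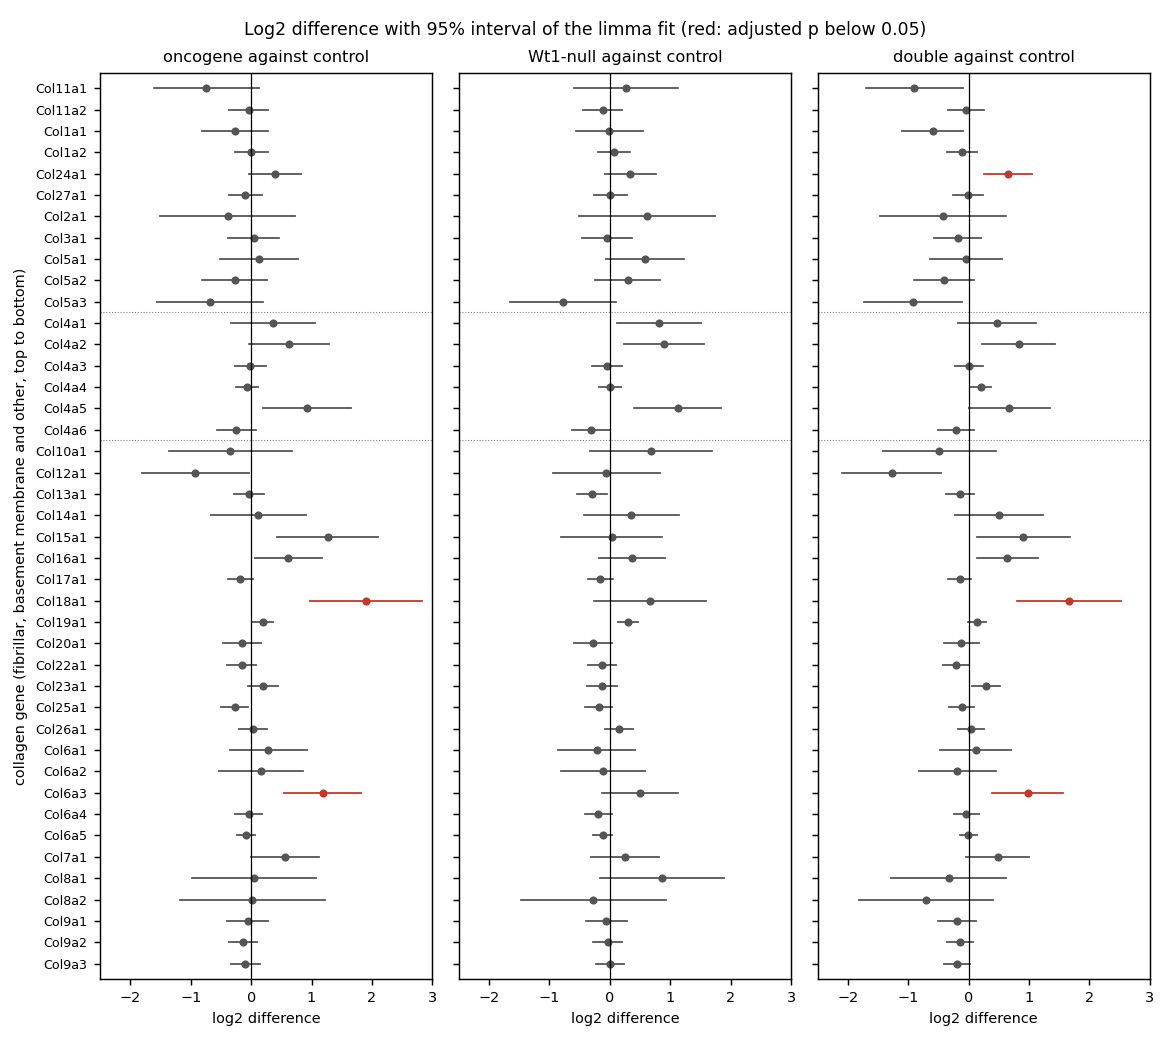
Points give the log2 difference of each collagen from the control in oncogene, Wt1-null and double arrays, with the 95% interval of the limma fit. Calls at an adjusted p below 0.05 are red: Col18a1 and Col6a3 in the oncogene and double panels, Col24a1 in the double panel and none in the Wt1-null panel.

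By count, 2 of 42 collagens were called in oncogene against control, both higher, where 2.04% of all genes were called (1.32% higher). None was called without control array 2, 3 or 4 or oncogene array 4, 5 or 6. At an unadjusted p under 0.05, 6 were higher and 2 lower, against 15.0% of all genes (7.55% higher, 7.49% lower). Arrays did not overlap for 1, Col25a1, with a difference of -0.27, against 5.94% of all genes (2.81% lower). In double against control 3 of 42 were called, all higher, where 5.93% of all genes were called (3.48% higher), so that the collagen share is near the background. Leaving out 1 array moved this count between 0 (without control array 2, 3 or 4) and 8 (without double array 1). At an unadjusted p under 0.05, 8 were higher and 4 lower, against 20.1% of all genes (10.4% higher, 9.69% lower). Arrays did not overlap for 2, Col18a1 and Col6a3, both higher, against 4.28% of all genes (2.49% higher). The double and oncogene groups differed in 0 collagens and 0.00% of all genes by limma, with 1 collagen higher at an unadjusted p under 0.05 against 3.09% (1.32% higher). Arrays did not overlap for that gene, Col4a4, against 0.0879% (0.0330% higher). The double and Wt1-null groups also differed in 0 collagens by limma, against 0.0824% of all genes, with 4 higher and 8 lower at an unadjusted p under 0.05 against 14.8% (9.62% higher, 5.20% lower). No collagen had arrays that did not overlap there, against 0.923% of all genes.

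Some chains of the same trimer followed each other closely from array to array and others did not. Deviations from the group means over 22 arrays were used for 10 pairs of chains, so that differences between groups could not contribute. Col1a1 and Col1a2 had Pearson's r = 0.91 and Spearman's rho = 0.92, Col4a1 and Col4a2 r = 0.94 and rho = 0.85, and Col6a1 and Col6a2 r = 0.92 and rho = 0.90. In each of these 3 pairs the partner ranked 1 among all 18192 other genes by r, from either side. Each of these p-values was 1e-05, the smallest that 100000 permutations can give (at most 2.5e-05 after adjustment over the 10 pairs). Without the 2 arrays farthest from the median, r was 0.90, 0.87 and 0.90, and within run 3 (15 arrays) it was 0.90, 0.93 and 0.95.

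The other 7 pairs were looser. Col1a1 and Col3a1 had r = 0.84 (rho = 0.71), Col5a1 and Col5a2 r = 0.82 (rho = 0.78) and Col1a1 and Col5a1 r = 0.77 (rho = 0.87), with permutation p at most 3e-05 for r and 0.00035 for rho and adjusted values at most 5e-05 and 0.00058. Without the 2 farthest arrays r was 0.73, 0.74 and 0.79. Within run 3 it was 0.94, 0.81 and 0.78, so that Col1a1 with Col3a1 was not looser there. Col6a3 followed Col6a1 and Col6a2 less, at r = 0.65 (rho = 0.66) and 0.67 (rho = 0.61), with permutation p = 0.0010 and 0.00061 (adjusted 0.0013 and 0.00087), rho permutation p = 0.0012 and 0.0030 (adjusted 0.0017 and 0.0038), and r = 0.73 and 0.53 without the 2 farthest arrays. Among all genes Col6a3 ranked 550 and 465 by r with Col6a1 and Col6a2, which ranked 161 and 110 by r with Col6a3. Within run 3 these r values were 0.73 and 0.79. Col8a1 and Col8a2 gave r = 0.33 and rho = 0.27 (permutation p = 0.13 and 0.23, adjusted 0.14 and 0.26) and Col4a5 and Col4a6 r = 0.07 and rho = -0.04 (permutation p = 0.76 and 0.85, adjusted 0.76 and 0.85). Within run 3 the r of Col8a1 with Col8a2 was 0.29 and that of Col4a5 with Col4a6 was -0.14. The near-identical arrays named above count as separate arrays in the values of all pairs. The last 2 pairs each hold a dim chain: Col8a2 averaged 5.60 over all arrays and fell to 4.32, inside the background range, and Col4a6 averaged 6.59. The part of dim signal in their low r was not tested.

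**Figure D4:**
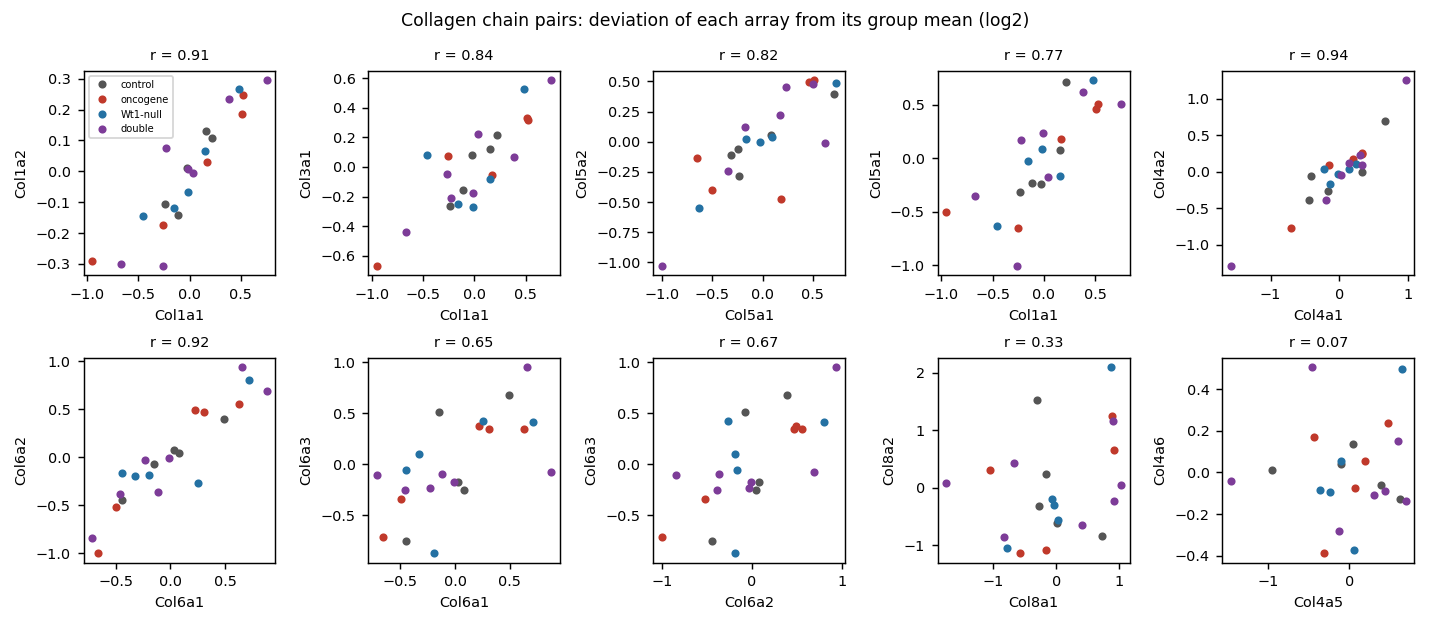
Each panel plots 22 arrays, coloured by group, as log2 deviations from the group mean for 2 collagen chains. The points of Col1a1 with Col1a2, Col4a1 with Col4a2 and Col6a1 with Col6a2 lie near a line (r = 0.91, 0.94 and 0.92), while Col4a5 with Col4a6 (r = 0.07) form a cloud.

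Beyond these pairs, the 22 collagens whose mean lay above the median of all genes gave 206 of 231 pairwise r values above 0, with a median of 0.41, as a description over arrays that share preparation and normalization. All 36 pairs of fibrillar genes were above 0 (median 0.63). The highest value joined Col5a2 and Col8a1 (0.94), and Col18a1 had its highest with Col6a3 (0.84), the genes called together above. Col4a1 with Col7a1 gave 0.85. The lowest values were -0.37 for Col4a5 with Col25a1 and -0.36 for Col18a1 with Col7a1.

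**Figure D5:**
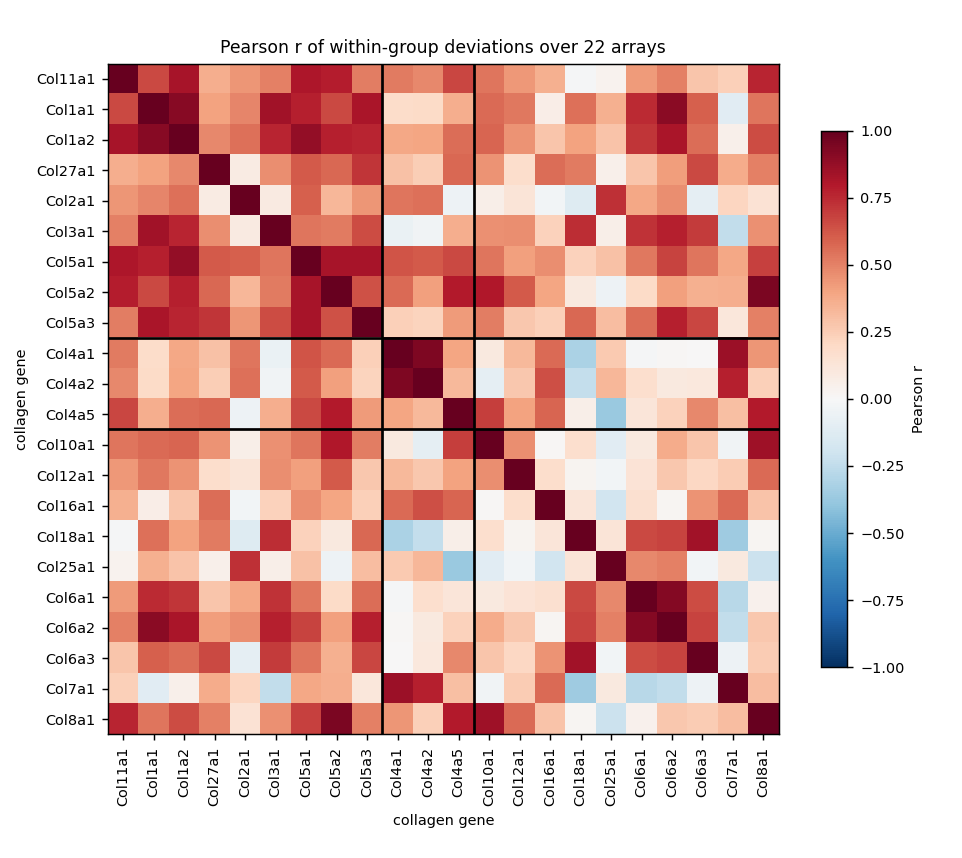
Colour gives Pearson's r of within-group deviations over 22 arrays for each pair of the 22 collagens above the median of all genes, ordered as fibrillar, basement membrane and other. The fibrillar block is red throughout, and Col18a1 is bluest with Col4a1 and Col7a1 (-0.32 and -0.36) and reddest with Col6a3 (0.84).

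The enzymes and chaperones that fold and modify collagen lay below the control for most members with the oncogene. Of 19 measured, 14 were lower than control in oncogene arrays with 0 called by limma (1 higher and 5 lower at an unadjusted p under 0.05), and 14 were lower in double arrays with 2 called lower and 1 higher. Of all genes, 10222 and 9935 of 18193 were lower in these comparisons, and 2.04% and 5.93% were called. Medians were -0.19 and -0.25 beside -0.03 and -0.02 over all genes. Serpinh1, the collagen chaperone Hsp47, fell by 0.68 in double against control (SE 0.17, adjusted p = 0.024, limma), from 13.70 to 13.91 in control to 12.72 to 13.61 in double arrays. P3h1, which hydroxylates prolines at the 3 position, fell by 0.64 (adjusted p = 0.031, limma), while its relative P3h2, which acts on type IV collagen among others, rose by 0.98 (SE 0.22, adjusted p = 0.012, limma), from 6.38 to 6.57 in control to 7.08 to 8.19 in double arrays. For these 3 genes no double array overlapped a control array, which held for 4 of the 19 and for 4.28% of all genes.

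Of 10 measured genes for procollagen trimming and crosslinking, Loxl4, a lysyl oxidase of the crosslinking family, fell by 0.85 in oncogene (adjusted p = 0.047, limma) and by 0.71 in double against control (adjusted p = 0.041, limma), with no overlap of arrays in either. Bmp1, the protease that removes the C-terminal propeptide, rose by 0.93 (adjusted p = 0.048, limma) and its enhancer Pcolce by 0.37 (adjusted p = 0.036, limma) in double against control. Of the 10 genes, 1 was thus called lower in oncogene, and 2 higher and 1 lower in double against control, where 2.04% and 5.93% of all genes were called. Arrays did not overlap for 1 and 2 of the 10, against 5.94% and 4.28% of all genes. Lox, the main lysyl oxidase of fibroblasts, differed by -0.43 ± 0.33 in oncogene and by -0.81 ± 0.31 in double against control (adjusted p = 0.59 and 0.13, limma). None of the 7 collagen receptors measured was called by limma in a comparison with the control. In oncogene, Wt1-null and double arrays 2, 1 and 1 of them, all higher, had an unadjusted p under 0.05. Of all genes 15.0%, 12.7% and 20.1% did so (7.55%, 4.20% and 10.4% higher). For the Wt1-null comparison with control, the comparisons of double with oncogene and Wt1-null and the interaction, 0 genes of these 3 lists were called by limma, with 4, 0, 7 and 0 at an unadjusted p under 0.05. Of all genes, 0.104%, 0.00%, 0.0824% and 0.0110% were called there, and 12.7%, 3.09%, 14.8% and 8.55% had an unadjusted p under 0.05.

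Markers of other cells were read beside these results. Pdgfra, a receptor of mesenchymal progenitors, rose by 1.97 in oncogene (adjusted p = 0.023, limma) and by 1.78 in double arrays (adjusted p = 0.014, limma), the only 1 of 8 fibroblast markers called. Of all genes 2.04% and 5.93% were called in these comparisons. Of 4 macrophage markers Cd68 rose by 0.80 in double against control (adjusted p = 0.0305, limma), the only 1 called. In that comparison 2 of the 4 were higher and 2 lower, with a median of 0.09. Ptprc stayed within the background range in every array, and list means were 5.57 to 6.01 in control and 5.84 to 6.27 in double arrays. Of 6 epithelial markers none was called by limma in a comparison with control (0, 0 and 1 at an unadjusted p under 0.05, against 15.0%, 12.7% and 20.1% of all genes). All 6 nevertheless read higher in double than in control, oncogene and Wt1-null arrays, by medians of 0.13, 0.15 and 0.10, where 45.4%, 53.2% and 58.0% of all genes were higher. Krt18 had the largest difference, 1.64 against control (adjusted p = 0.22, limma), and ran from 5.55 to 11.08 in double arrays, while Cdh1 stayed within the background range in every array. Of 7 chondrocyte markers Matn3 fell by 0.49 in double against control (adjusted p = 0.019, limma), the only 1 called, where 5.93% of all genes were called. In that comparison 2 of the 7 were higher and 5 lower, with a median of -0.24. The part of these markers in the collagen values was not tested.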

How the data were processed

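RNA of 22 MEF samples was read on Affymetrix mouse 430 2.0 arrays. Per the labels, the deposited values are log2 levels that the authors obtained with RMA, which corrects background, quantile-normalizes arrays and summarises probes, in Affymetrix Expression Console. They ran from 3.29 to 15.14, with array medians of 6.23 to 6.33, so an overall shift between arrays was already removed. The oncogene is not reported here by name. No label ties a replicate to its own embryo or culture, and p-values then measure only the spread between samples, which may be technical.

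Of 45101 probe sets, 34945 named 1 gene in the platform annotation and 932 several, which were not used. The probe set with the highest mean stood for each of 18193 genes. The 42 collagens had 82 probe sets, and 15 had only 1. All 22 arrays entered 1 limma fit (version 3.58.1, R 4.3.3) with the 4 groups, checked on simulated data, with Benjamini-Hochberg adjustment over all genes. The interaction is double minus Wt1-null minus oncogene plus control, and it contains the difference between the GFP and Cre viruses.

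Named with values were the chains of type I, III, IV, V and VI collagen that fibroblasts make most of, every called collagen, the 3 largest differences per comparison, the extremes of each class and called genes of the other lists; further members were named after their values were seen. Members and lists were chosen with earlier results of these data known. Alternatives changed the probe set rule, centring, weights, arrays, blocks and covariates; those chosen after seeing the data were the fits within accession runs 2 and 3 and the type VI chain difference. The main fit did not pair arrays by replicate number. Deviations from the group means correlated from -0.47 to 0.77 over 28 same-number pairs of different groups. Their median was 0.038, against -0.011 for pairs with different numbers. Wt1-null array 2 was closest to double array 2, whereas Wt1-null array 5 was closest to oncogene array 6. These values do not settle whether replicates were paired, so a replicate block was among the alternatives. The precision is limited by the number of arrays.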

Additional observations from a re-analysis of the deposited data

Results flagged for a closer look

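Levels were examined for 19 collagens in each of the 4 groups, 76 group levels in all, and in 4 of them 1 array lay apart from the others of its group by Dixon's criterion, which chance meets in about 1 of 20 groups. Col4a2 in oncogene array 1 was 11.01, with the nearest other array of the group at 11.87. In Wt1-null array 5, Col6a2 was 13.35, with the nearest at 12.38, and Col8a2 was 7.71, with the nearest at 5.42. Col6a3 in double array 6 was 13.90, with the nearest at 12.87, and without that array its difference from control was 0.82 (adjusted p = 0.073, limma).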

How the results depend on the processing

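No difference called in the report changed sign in any alternative. Over all alternatives these kept their call in 103 fits and lost it in 66, and uncalled differences became called in 31, stayed uncalled with the same sign in 2270 and took the other sign in 74. For oncogene against control, where 2 collagens were called, 1 was called with the mean of all probe sets, with median-centred arrays, in a fit of only the groups compared, with the replicate block, with Wt1-null arrays 3 and 4 averaged, without oncogene and double array 4 together, with Xist as a covariate and within run 3. For double against control, where 3 were called, 1 was called in a fit of only the groups compared, with the replicate block and with those Wt1-null arrays averaged, 5 without both arrays 4 and 0 with Xist as a covariate. For Wt1-null against control 1 collagen was called in a fit of only the groups compared. Array weights raised the counts to 9 and 17 for oncogene and Wt1-null and to 18 for double against control, to 10 for double against Wt1-null, to 7 for the interaction and to 25 in the F test, while the counts over all genes rose as well, to 4417, 6016 and 6036 in the comparisons with control. The F test called 0 collagens with the replicate block, with the run as a block and with Wt1-null arrays 3 and 4 averaged. The causes were not tested.

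Leaving out 1 array at a time gave 0 to 2 collagens for oncogene against control, 0 to 8 for double against control, 0 to 1 for double against Wt1-null (1 without Wt1-null array 2) and 0 to 3 in the F test (3 without Wt1-null array 2 or double array 1); Wt1-null against control, double against oncogene and the interaction stayed at 0. With the replicate block Col18a1 differed by 1.68 and 1.60 from control (adjusted p = 0.041 and 0.018, limma) and Col6a3 by 1.004 and 0.89 (adjusted p = 0.089 and 0.065). Within run 3 Col18a1 differed by 1.98 and 1.68 (adjusted p = 0.070 and 0.056) and Col6a3 by 1.40 and 1.11 (adjusted p = 0.048 and 0.047). Levels near the background range, such as those of Col24a1, are limited by signal over background. The median difference of the other collagens changed sign with the mean of all probe sets in oncogene against control (0.02 to -0.03), in Wt1-null against control (-0.06 to 0.01) and in the interaction (-0.09 to 0.03).

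Of the uncalled differences of single genes, 23 changed sign in at least 1 alternative, all at most 0.34 in reported size and with no value of the other sign called. With array weights these were Col1a1 0.0077 and Col5a2 0.11 in oncogene against control, Col1a1 0.012 in Wt1-null against control, Col5a1 0.18 and Col6a1 -0.080 in double against control. With the mean of all probe sets these were Col1a2 -0.047 and Col5a1 -0.023 in oncogene against control, Col1a1 0.23 and Col3a1 0.053 in Wt1-null against control. With median-centred arrays these were Col1a2 -0.051 and Col3a1 -0.013 in oncogene against control, Col1a1 0.016 in Wt1-null against control. With the replicate block these were Col1a2 -0.077, Col3a1 -0.058, Col5a1 -0.066 and Col6a2 -0.080 in oncogene against control. With both arrays 4 omitted these were Col1a2 -0.0027 in oncogene against control, Col6a1 -0.027 in double against control, Col4a1 -0.091 in double against oncogene. With Xist as a covariate these were Col1a2 -0.027 and Col5a1 -0.022 in oncogene against control, Col5a1 0.12 in double against control, Col5a1 0.14 and Col5a2 0.022 in double against oncogene, Col4a2 0.042 in double against Wt1-null, Col6a1 -0.037 for the interaction. With the run as a block these were Col1a1 0.012, Col6a1 0.10 and Col6a2 0.18 in Wt1-null against control, Col5a1 0.060 in double against control, Col3a1 0.053 and Col6a1 -0.057 in double against Wt1-null, Col3a1 0.002 and Col6a1 -0.36 for the interaction. With Wt1-null arrays 3 and 4 averaged these were Col1a1 0.014 and Col3a1 0.017 in Wt1-null against control, Col6a1 -0.044 for the interaction. With run 2 alone these were Col1a2 -0.0082 and Col6a2 0.11 in Wt1-null against control. With run 3 alone these were Col5a1 0.14 in double against control, Col4a1 -0.071 in double against oncogene. Leaving out 1 array gave -0.058 to 0.077 for Col1a2 (oncogene against control), -0.041 to 0.21 for Col3a1 (oncogene against control), -0.13 to 0.11 for Col1a1 (Wt1-null against control), -0.18 to 0.019 for Col3a1 (Wt1-null against control), -0.14 to 0.14 for Col5a1 (double against control), -0.027 to 0.24 for Col6a1 (double against control), -0.26 to 0.034 for Col5a2 (double against oncogene), -0.071 to 0.37 for Col4a1 (double against oncogene), -0.0098 to 0.42 for Col4a2 (double against oncogene), -0.28 to 0.14 for Col4a2 (double against Wt1-null), -0.23 to 0.13 for Col6a2 (double against Wt1-null) and -0.11 to 0.23 for Col6a1 (interaction).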
